A study of Mus musculus with 8 samples.

Results

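The genes described here are 10 rapid-response genes of mouse liver: the AP-1 subunit genes Fos, Jun, Junb and Jund, the transcription factor genes Egr1, Myc and Klf6, and the immediate early genes Ier2, Ier3 and Dusp1. They were taken by symbol from the deposited tables, where all 10 of 10 were found once each among 22923 symbols. RNA came from livers of C57BL/6 mice in 4 groups. The groups, each on its diet for 4 weeks, were Xbp1-/- (knockout, KO) mice on regular chow, Xbp1flox (Flox) controls on regular chow, Xbp1-/- mice on a diet high in fat (with high-fructose corn syrup equivalent), and Xbp1flox controls on that same high-fat diet. The protein made from Xbp1 switches on genes of the unfolded protein response, and the design text calls the deficiency hepatic. The promoter that drove the deletion, the exons removed, and the sex and age of the mice are not stated in the labels. Each cohort of 4 mice was pooled into 2 libraries, and the tables hold 1 value per gene and group.

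Immediate early genes are switched on within minutes of a signal, without new protein synthesis, and their messenger RNAs are mostly short-lived. AP-1 is a dimer of a Jun protein with a Fos, Jun or ATF partner. It is regulated by the MAP kinases ERK, p38 and JNK, and in the unfolded protein response the sensor IRE1, which splices Xbp1 messenger RNA, can also activate JNK. In liver, Jun, Fos, Egr1 and Myc are known for their early response to partial hepatectomy and injury.

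Values are RPKM, read numbers scaled by transcript length and library size, so levels can be compared between genes. With 1 value per group there was no test, and no p-value, SD or standard error is given; the spread between libraries is unknown and no difference below has a replicate check. A change is log2((a + 1)/(b + 1)) in RPKM, and this scale understates the change of low genes. A gene is said to have risen or fallen when that change reached 1 (2-fold) in size; a lower limit of 1.5-fold is given beside it. Percentages of all genes use those with at least 1 RPKM in at least 1 group, which 9 of the 10 genes met; Fos did not. The scaling between groups was varied in 2 ways, to 1 shared median over genes and to 1 shared sum that leaves out the 50 most abundant genes, and these are called the 2 rescalings. In bulk liver, fewer cells of a type and less RNA per cell cannot be told apart.

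Library depth is unknown. The deposited values summed to between 367414 RPKM (KO high fat) and 513694 RPKM (Flox chow). Xbp1 fell in both knockout groups: it stood at 44.2 RPKM in KO chow against 112 RPKM in Flox chow, and at 34.1 RPKM in KO high fat against 90.7 RPKM in Flox high fat. Hepatocyte markers were abundant, with a summed level of 17105 to 29655 RPKM, although Alb was listed at 0 in all 4 groups and Serpina1a at 0 in all but KO high fat, so an exact 0 may be a failed estimate. None of the 10 genes was listed at 0 in any group.

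The 10 genes lie on 7 chromosomes of the mouse assembly GRCm38 (mm10), and their positions and strands are RefSeq's and GENCODE's. Fos lies on chromosome 12, 85473890 to 85477274. Jun lies on chromosome 4, 95049036 to 95052222. Jund (70697739 to 70700616), Ier2 (84661331 to 84662852) and Junb (84976909 to 84978748) share chromosome 8. Dusp1 (26505591 to 26508472) and Ier3 (35821713 to 35822911) share chromosome 17. Klf6 is on chromosome 13 (5861489 to 5870393) and Myc on chromosome 15 (61985341 to 61990361). Jun, Junb, Jund and Ier2 have 1 exon each in GENCODE's principal transcript. No RefSeq gene overlaps any of them; the closest neighbour is Junos, a non-coding gene that starts 95 bases from Jun.

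Egr1 is placed on chromosome 18, 34861207 to 34864956.

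The order of the RNA levels was much the same in every group. Jund and Junb were the 2 highest in every group. Dusp1, which encodes a phosphatase that switches off MAP kinases, and Ier2, a nuclear protein gene of the immediate early class, took ranks 3 and 4 in every group. Jun, Myc, Egr1 and Klf6 filled ranks 5 to 8 in an order that differed between groups. Ier3, a gene of stress-regulated survival, was 9 in rank and Fos 10 in rank throughout. No spread is available to say which neighbours in that order differ.

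**Figure D1:**
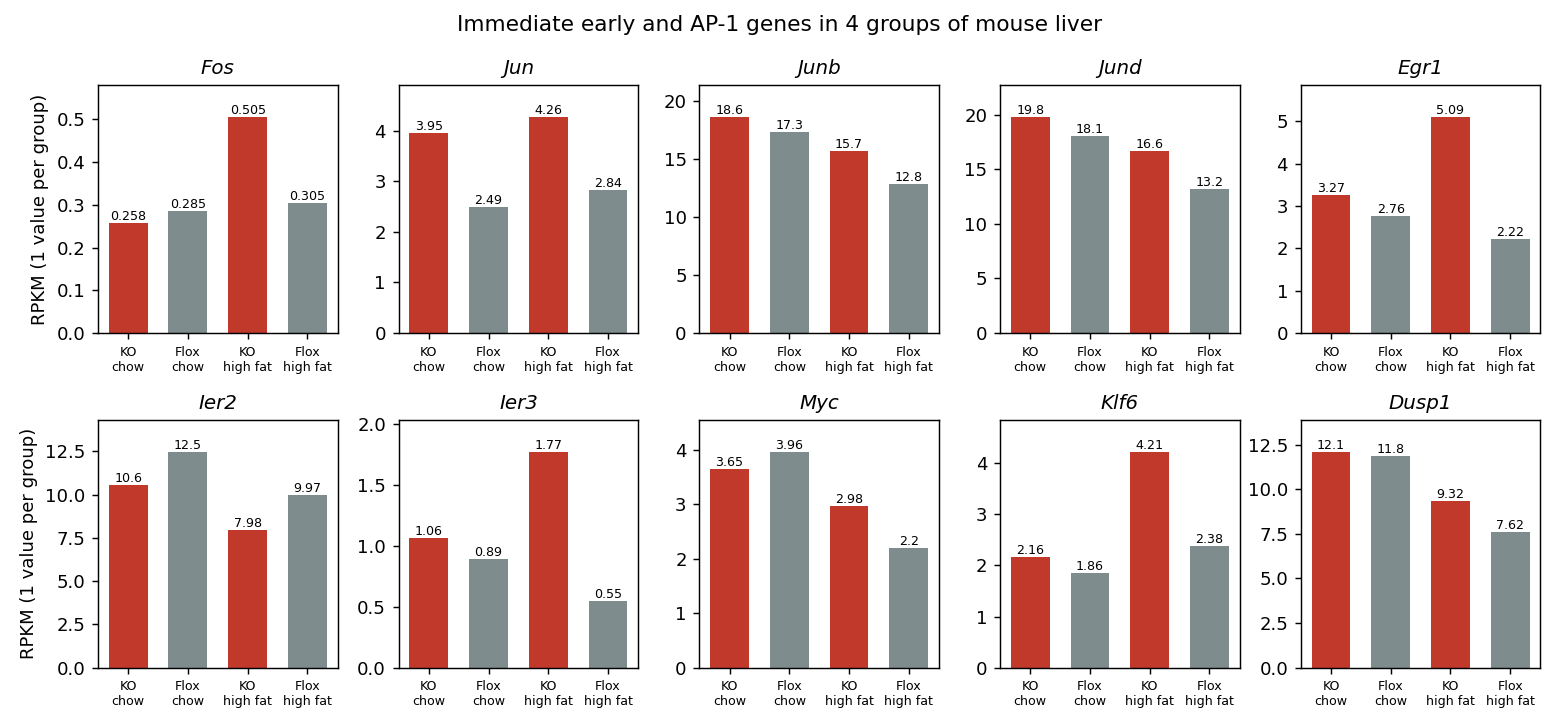
RPKM of each of the 10 genes (vertical axis, linear, own scale per gene) in KO chow, Flox chow, KO high fat and Flox high fat livers; each bar is the 1 deposited value of a group, red for KO and grey for Flox. Egr1, Klf6, Ier3, Fos and Jun were highest in KO high fat, at 5.09, 4.21, 1.77, 0.505 and 4.26 RPKM.

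Promoter sequence is shown for 4 of the genes, as the 250 bases before the RefSeq start on GRCm38.p6, 5′ to 3′ on the gene's strand. Ier3 and Klf6 had the widest span of levels among the 7 genes whose promoters are in the RefSeq table, Fos is the canonical AP-1 partner, and Dusp1 carries the one CRE match found. Capitals mark motif matches. The windows are chr17:35821463-35821712 (Ier3, plus strand), chr13:5861239-5861488 (Klf6, plus strand), chr12:85473640-85473889 (Fos, plus strand) and chr17:26508473-26508722 (Dusp1, minus strand).
Ier3: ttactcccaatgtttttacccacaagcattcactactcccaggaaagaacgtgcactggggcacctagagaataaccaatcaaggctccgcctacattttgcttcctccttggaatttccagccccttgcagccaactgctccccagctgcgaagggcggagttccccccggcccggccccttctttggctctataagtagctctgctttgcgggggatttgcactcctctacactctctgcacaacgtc
Klf6: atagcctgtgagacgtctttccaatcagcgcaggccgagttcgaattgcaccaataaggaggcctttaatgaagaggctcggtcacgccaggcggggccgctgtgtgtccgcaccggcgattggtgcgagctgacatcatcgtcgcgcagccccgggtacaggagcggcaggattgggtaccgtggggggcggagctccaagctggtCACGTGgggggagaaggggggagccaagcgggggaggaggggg
Fos: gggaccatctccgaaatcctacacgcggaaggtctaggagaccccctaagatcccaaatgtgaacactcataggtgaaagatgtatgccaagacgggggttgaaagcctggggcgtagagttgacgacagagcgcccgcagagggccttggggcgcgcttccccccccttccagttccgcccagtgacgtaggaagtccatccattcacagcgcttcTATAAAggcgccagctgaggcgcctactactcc
Dusp1: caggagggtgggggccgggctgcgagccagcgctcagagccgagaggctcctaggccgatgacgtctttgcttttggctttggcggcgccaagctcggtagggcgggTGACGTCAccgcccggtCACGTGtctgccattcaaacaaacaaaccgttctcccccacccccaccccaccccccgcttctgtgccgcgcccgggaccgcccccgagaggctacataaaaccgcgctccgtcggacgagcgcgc

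Motifs were searched on both strands in 300 bases, from 250 before to 50 after the start, in the promoters of Fos, Jun, Junb, Jund, Ier3, Klf6 and Dusp1. The CRE (TGACGTCA), the site of CREB and ATF factors, was found in 1 of 7, Dusp1, at position -143; it is in 1.79% of all 32817 promoters. The E-box (CACGTG), the site of MYC with MAX, was found in 2 of 7, Klf6 at -43 and Dusp1 at -126, against 7.15% of all promoters. The letters of the TATA box (TATAAA) were found in 2 of 7, Fos at -33 and Junb at 1, against 13.6%. The Junb match begins at the gene start and not before it. The AP-1 site (TGANTCA; 7.81% of all promoters), the UPR element (TGACGTGG, a site of XBP1 and ATF6; 0.676%) and the CArG box of serum response factor (1.63%) matched in 0 of 7. These matches describe the letters in these windows. Sites outside the windows, or with other letters, were not searched for, so 0 of 7 does not mean that the genes lack such sites.

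On chow, none of the 10 genes rose or fell with the loss of Xbp1, where 1.62% of all genes did. Past 1.5-fold the count was also 0 upward, against 1.09% of all genes, and 0 downward, against 3.84%. The median log2 change of the 10 genes was 0.11, beside a median of -0.02 over all 10322 genes compared. Of the 10, 7 stood higher and 3 lower in KO than in Flox livers, where 45.8% of all genes stood higher, by amounts that no replicate spread can be set against.

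Jun, the founding AP-1 subunit gene and a classic readout of JNK signalling, stood furthest apart on chow. It was at 3.95 RPKM in KO chow against 2.49 RPKM in Flox chow, a log2 change of 0.50, the rank of 162 from the top among 10322 genes. Its relatives Junb (18.6 RPKM in KO chow, 17.3 RPKM in Flox chow; log2 change 0.10) and Jund (19.8 and 18.1 RPKM in the same order; log2 change 0.12) were close to level. Fos stood at 0.258 RPKM in KO chow against 0.285 RPKM in Flox chow.

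The other genes were close between genotypes on chow. Egr1, a zinc finger factor induced through ERK and serum response factor, stood at 3.27 RPKM in KO chow against 2.76 RPKM in Flox chow (log2 change 0.18). Ier3 stood at 1.06 RPKM in KO chow against 0.890 RPKM in Flox chow (0.13). Klf6, a Krüppel-like factor known from stellate cell activation, was listed at 2.16 RPKM in KO chow and 1.86 RPKM in Flox chow (0.14). These 3 stood slightly higher in KO. Myc, which drives growth and ribosome production, was listed at 3.65 RPKM in KO chow and 3.96 RPKM in Flox chow (-0.09), and Dusp1 at 12.1 and 11.8 RPKM in that order (0.03). Ier2 was the lowest in relative terms, at 10.6 RPKM in KO chow against 12.5 RPKM in Flox chow (-0.22). The direction of Myc and Fos on chow turned positive when the groups were rescaled without the 50 most abundant genes.

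On the high-fat diet, 9 of the 10 genes stood higher in KO than in Flox livers, with Ier2 the exception, where 29.9% of all genes stood higher on the deposited scaling. At 2-fold the count was 0 of the 10, where 2.93% of all genes passed. Past 1.5-fold upward were 3 genes, Egr1, Ier3 and Klf6, against 3.2% of all genes; downward the count was 0, against 8.33%. The median of the 10 was 0.32, beside -0.13 over all 10327 genes. After scaling to 1 median, the median of the 9 genes past the filter was 0.49, beside 0.02 over all genes. After rescaling without the 50 most abundant genes these were 0.61 and 0.12. The knockout groups of the 2 diets are separate libraries, as are the Flox groups.

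Egr1 had the largest log2 change of the 10 on this diet. It stood at 5.09 RPKM in KO high fat against 2.22 RPKM in Flox high fat, a 2.30-fold ratio of RPKM and a log2 change of 0.92. Only KO high fat was above the range of 2.22 to 3.27 RPKM that the other 3 groups covered, and it ranked 128 from the top among 10327 genes. With a pseudocount of 0.1 RPKM in place of 1 the log2 change was 1.16. It was 1.07 once every group was scaled to the same median gene. It was 1.18 once the groups were brought to 1 common sum without the 50 most abundant genes. With a pseudocount of 5 RPKM it was 0.48, short of 1.5-fold. The calls of Egr1 at 2-fold and at 1.5-fold thus depend on those choices.

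Ier3 had the largest ratio but a low level. It stood at 1.77 RPKM in KO high fat against 0.550 RPKM in Flox high fat, a 3.21-fold ratio of RPKM and a log2 change of 0.84. It passed the filter of 1 RPKM in the 2 KO groups alone, so the filter itself favours a higher value there. The log2 change was 1.52 with a pseudocount of 0.1 RPKM and 1.03 after scaling without the 50 most abundant genes. It was 0.94 after scaling the groups to 1 median. With a pseudocount of 5 RPKM it was 0.29, short of 1.5-fold. The KO high fat value is again the highest of the 4 groups.

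Klf6 stood at 4.21 RPKM in KO high fat against 2.38 RPKM in Flox high fat, a 1.77-fold ratio and a log2 change of 0.63. In the other 3 groups it lay between 1.86 and 2.38 RPKM. With a pseudocount of 5 RPKM its log2 change was 0.32, short of 1.5-fold. Fos, below the filter, stood at 0.505 RPKM in KO high fat against 0.305 RPKM in Flox high fat, a ratio of 1.66 between 2 values that are both under 1 RPKM.

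The Jun family was less far apart. Jun stood at 4.26 RPKM in KO high fat against 2.84 RPKM in Flox high fat (log2 change 0.46), close in size to its change on chow. Junb stood at 15.7 RPKM in KO high fat against 12.8 RPKM in Flox high fat (0.27). Jund stood at 16.6 RPKM in KO high fat against 13.2 RPKM in Flox high fat (0.32). All 3 were higher in KO on this diet. Myc was listed at 2.98 RPKM in KO high fat and 2.20 RPKM in Flox high fat (0.31), and Dusp1 at 9.32 and 7.62 RPKM in that order (0.26). Ier2 stood at 7.98 RPKM in KO high fat against 9.97 RPKM in Flox high fat (-0.29), lower in KO as on chow.

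**Figure D2:**
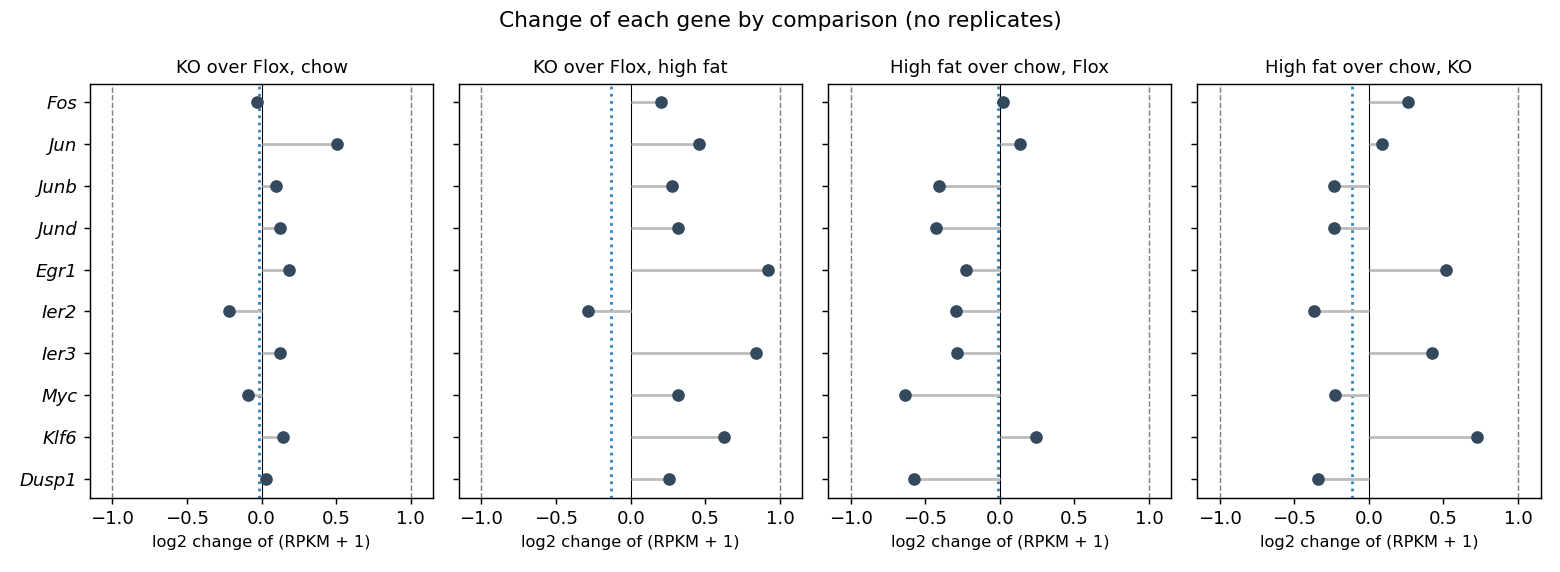
Log2 change of RPKM + 1 (horizontal axis) of each of the 10 genes in the 4 comparisons; dashed lines mark 2-fold, the dotted line the median of all genes, and no point has a replicate error. No point reaches a dashed line; Egr1 (0.92) and Ier3 (0.84) come closest, in KO over Flox on the high-fat diet.

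Within the Jun family, Jund and Junb held most of the RNA in every group, and the share of Jun varied. Jun made up 9.33% of the summed Jun, Junb and Jund RPKM in KO chow against 6.58% in Flox chow. On the high-fat diet it made up 11.6% in KO against 9.84% in Flox. The rest was divided about evenly, with Jund at 45.5% to 47.7% and Junb at 42.9% to 45.8% across the 4 groups. The summed family level was 42.3 RPKM in KO chow against 37.9 RPKM in Flox chow, and 36.6 RPKM in KO high fat against 28.8 RPKM in Flox high fat. That sum exceeded Fos by 164 times in KO chow against 133 times in Flox chow, and by 72.5 times in KO high fat against 94.6 times in Flox high fat.

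**Figure D3:**
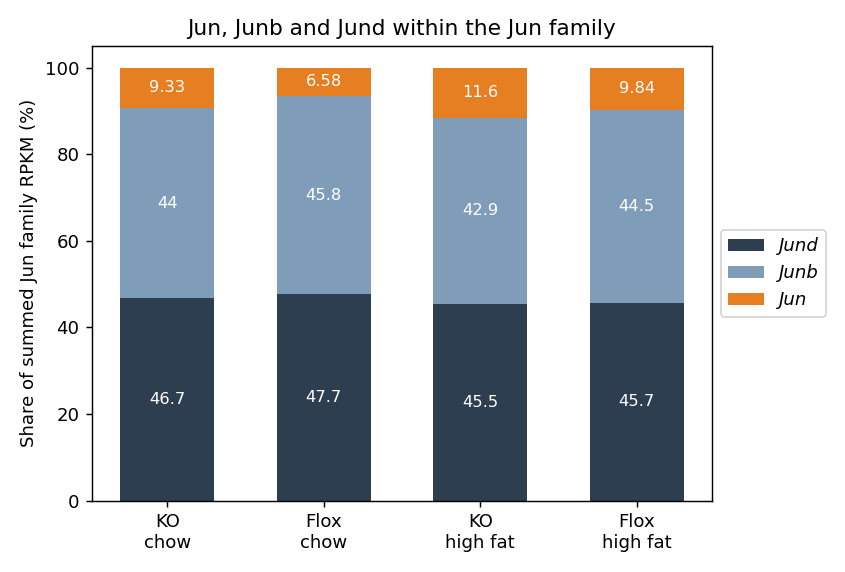
Share of the summed Jun family RPKM (vertical axis, percent) held by Jund, Junb and Jun in KO chow, Flox chow, KO high fat and Flox high fat livers, with 1 value per group. Jun held the smallest share everywhere, from 6.58% in Flox chow to 11.6% in KO high fat.

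The diet comparisons share groups with the genotype comparisons above, so their values are given side by side and are no separate evidence. In Flox livers 0 of the 10 genes passed 2-fold between high-fat diet and chow, where 0.639% of all genes did. Past 1.5-fold, 0 genes were higher, against 1.23% of all genes, and 1, Myc, was lower, against 1.68%. The median of the 10 was -0.29, beside -0.01 over all genes. Myc stood at 2.20 RPKM in Flox high fat against 3.96 RPKM in Flox chow (log2 change -0.63). Dusp1 (-0.57), Jund (-0.43), Junb (-0.41), Ier2 (-0.30), Ier3 (-0.29) and Egr1 (-0.23) were also lower on the high-fat diet in Flox livers. Klf6 (0.24), Jun (0.14) and Fos (0.02) were not.

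In KO livers 5 of the 10 genes stood higher and 5 lower on the high-fat diet than on chow, where 33.6% of all genes stood higher. At 2-fold the count was 0, where 1.46% of all genes passed. Past 1.5-fold upward was 1 gene, Klf6, at 4.21 RPKM in KO high fat against 2.16 RPKM in KO chow (log2 change 0.72), against 2.68% of all genes; downward the count was 0, against 4.7%. The median of the 10 was -0.07, beside -0.11 over all genes. Over the 9 genes past the filter, without Fos, the median was -0.23, lower than that of all genes. Egr1 (0.51), Ier3 (0.43), Fos (0.26) and Jun (0.09) also stood higher on the high-fat diet in KO livers. Dusp1 (-0.34), Ier2 (-0.37), Jund (-0.23), Junb (-0.23) and Myc (-0.23) stood lower, of which Junb and Jund turned positive after rescaling without the 50 most abundant genes. The 4 abundant genes Jund, Junb, Ier2 and Dusp1 made up 72.5% of the summed level of the 10 in KO high fat, against 81.0% in KO chow, 80.6% in Flox high fat and 83.0% in Flox chow.

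The difference between the knockout changes of the diets, high fat minus chow, was positive for 8 of the 10 genes and for 32.1% of all genes. It reached 2-fold for 0, where 1.23% of all genes did. Past 1.5-fold upward were Egr1 (0.74) and Ier3 (0.71), against 2.32% of all genes; downward the count was 0, against 3.03%. Klf6 followed at 0.48 and Myc at 0.41. The median over the 10 genes was 0.23, beside -0.10 over all genes. Jun (-0.05) and Ier2 (-0.07) were near 0, and both turned positive after either rescaling.

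Other AP-1 subunits and their partners were mostly low. For the counts of the gene lists, 111 of all 10327 genes rose and 192 fell in KO on the high-fat diet, and 26 of all 10322 rose and 141 fell on chow. Of 13 listed genes 6 passed the filter, and Fosl1 was listed at 0 in all 4 groups. On the high-fat diet 1 of the 6 rose in KO and 0 fell, where 2.93% of all genes did one or the other. That gene was Atf3, a stress-induced repressor and AP-1 partner, at 2.38 RPKM in KO high fat against 0.507 RPKM in Flox high fat (log2 change 1.17). It passed the filter through KO high fat alone. Fosl2, the FRA2 gene, stood at 1.63 RPKM in KO high fat against 1.16 RPKM in Flox high fat (0.29). The small MAF gene Mafg was listed at 8.56 RPKM in KO high fat and 12.3 RPKM in Flox high fat (-0.48), and Atf2 at 5.35 and 6.34 RPKM in that order (-0.21). On chow 0 of the 6 rose or fell in KO.

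Among 41 other immediate early genes, 31 passed the filter. On chow 0 rose and 0 fell in KO, with a median log2 change of 0.07. Plk3, a polo-like kinase gene, stood furthest apart there, at 28.5 RPKM in KO chow against 17.6 RPKM in Flox chow (0.67). The growth arrest gene Gadd45g (8.93 RPKM in KO chow, 5.48 RPKM in Flox chow; 0.62), the growth inhibitor gene Btg1 (log2 change -0.51) and the nuclear receptor gene Nr4a1 (0.945 and 0.411 RPKM in that order; 0.46) followed, and Nr4a1 passed the filter through KO high fat alone.

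On the high-fat diet 1 of these 31 rose in KO and 0 fell, where 2.93% of all genes passed, and the median was 0.07, beside -0.13 over all genes. The gene that rose was Areg, the gene of the EGF receptor ligand amphiregulin, at 2.11 RPKM in KO high fat against 0.0248 RPKM in Flox high fat (log2 change 1.60); it passed the filter through KO high fat alone. Plk3 stood at 22.7 RPKM in KO high fat against 11.3 RPKM in Flox high fat (0.95). The kinase gene Sgk1 stood at 8.17 RPKM in KO high fat against 4.56 RPKM in Flox high fat (0.72). Cyr61, a matricellular gene, stood at 4.80 RPKM in KO high fat against 2.67 RPKM in Flox high fat (0.66). Past 1.5-fold were 6 of the 31 upward, against 3.2% of all genes, and 1 downward, against 8.33%.

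No kinase gene above AP-1 passed 2-fold. Of 25 genes of the JNK, p38 and ERK cascades 22 passed the filter, and 0 rose and 0 fell in KO on either diet. Their median log2 change was -0.01 on chow and -0.21 on the high-fat diet, beside -0.02 and -0.13 over all genes. The JNK genes Mapk8 (2.50 RPKM in KO high fat, 2.86 RPKM in Flox high fat; -0.14) and Mapk9 (9.88 and 11.6 RPKM in that order; -0.21) were close. Map2k2, a MEK gene, stood at 27.4 RPKM in KO high fat against 47.7 RPKM in Flox high fat (-0.78). Ern1, which encodes IRE1, stood at 6.10 RPKM in KO high fat against 5.39 RPKM in Flox high fat (0.15). These are RNA levels, and kinase activity was not measured.

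Feedback inhibitors of MAP kinases differed in 1 gene. Of 16 listed genes 11 passed the filter, and on the high-fat diet 0 rose and 1 fell in KO, where 2.93% of all genes passed. Spry4, which damps ERK signalling, stood at 1.05 RPKM in KO high fat against 4.73 RPKM in Flox high fat (log2 change -1.48), while on chow it stood at 1.71 RPKM in KO and 2.26 RPKM in Flox (-0.27). Dusp16, a JNK phosphatase gene, stood at 4.71 RPKM in KO high fat against 6.96 RPKM in Flox high fat (-0.48). The ERK phosphatase gene Dusp6 was listed at 12.5 RPKM in KO high fat and 11.9 RPKM in Flox high fat (0.07). Of the SRF, ELK and CREB regulators of immediate early promoters, 12 of 12 passed the filter, with 0 past 2-fold and medians of 0.03 on chow and -0.08 on the high-fat diet.

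Partners and targets of MYC did not pass 2-fold either. In the MAX network 9 of 11 genes passed the filter and 0 rose or fell in KO on either diet. The repressor gene Mxd4 stood at 10.8 RPKM in KO high fat against 19.4 RPKM in Flox high fat (log2 change -0.79). Of 14 MYC targets of ribosome making and growth 13 passed the filter and 0 rose or fell on either diet. Odc1, the gene of ornithine decarboxylase, had a log2 change of -0.69 on the high-fat diet. The nucleolar genes Npm1 (75.0 RPKM in KO high fat, 74.8 RPKM in Flox high fat) and Fbl (21.1 and 20.8 RPKM in that order) were level.

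Genes known as AP-1 targets in other settings were assembled into a list of 15 with earlier results of these data known, and 8 passed the filter. On the high-fat diet 5 of the 8 rose in KO and 0 fell, where 2.93% of all genes passed, and on chow 0 rose or fell. Of the 5, Mmp12 passed the filter through KO high fat alone and Ccl2 through the KO groups alone, so the filter favours higher KO values for both. The cell cycle gene Ccnd1 stood at 19.7 RPKM in KO high fat against 4.67 RPKM in Flox high fat (1.87), and osteopontin, Spp1, at 103 against 20.6 RPKM in that order (2.27). Mmp12, a macrophage metalloproteinase gene, stood at 3.08 RPKM in KO high fat against 0.197 RPKM in Flox high fat (1.77). The other 2 were Tnfrsf12a (1.20), a cytokine receptor gene, and Ccl2, a chemokine gene, at 3.07 RPKM in KO high fat against 0.784 RPKM in Flox high fat (1.19). Hmox1 (0.29) and Vegfa (-0.15) did not pass. The listed genes have regulators other than AP-1.

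**Figure D4:**
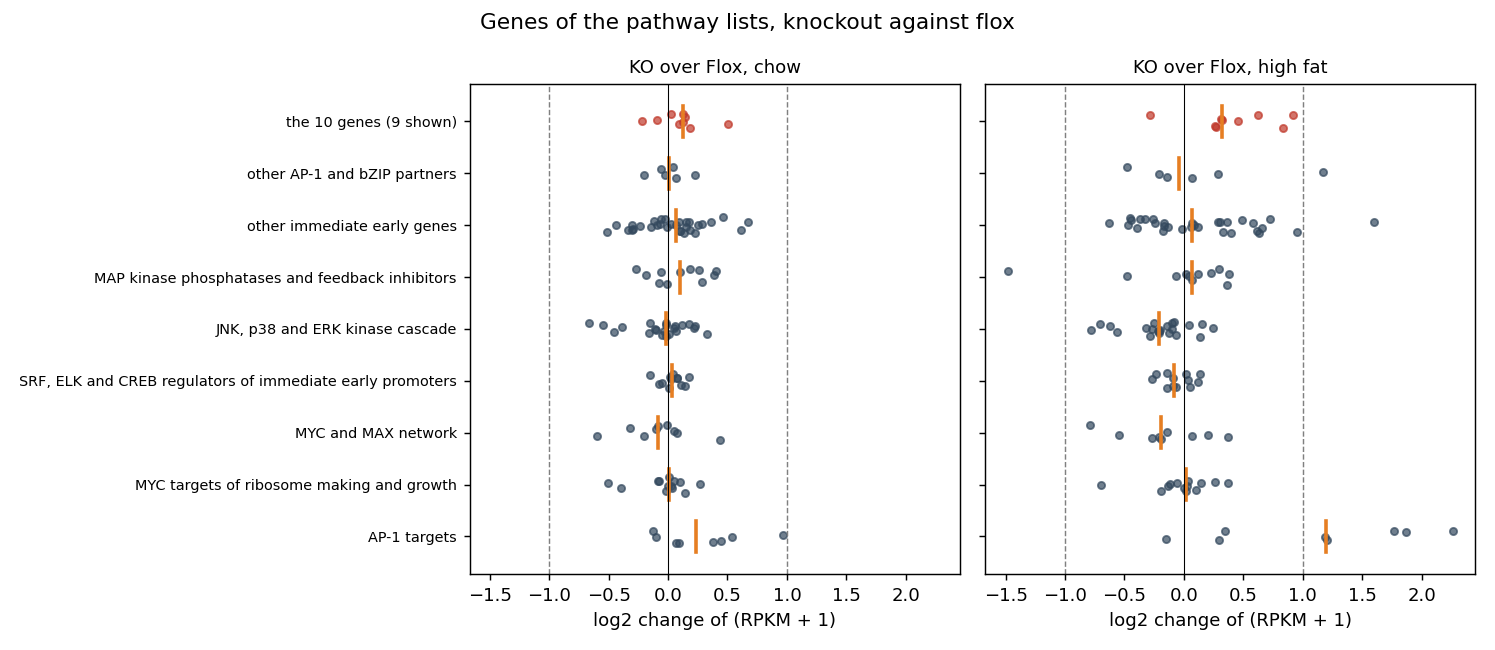
Log2 change of RPKM + 1 in KO over Flox (horizontal axis) for each measured gene of the pathway lists, on chow and on the high-fat diet; red points are the 9 of 10 genes past the filter, dark points other genes, orange bars medians of the genes drawn and dashed lines 2-fold. On the high-fat diet Atf3 (1.17), Areg (1.60), 5 AP-1 targets and, below, Spry4 (-1.48) lie outside the dashed lines.

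Markers of other liver cells differed between the same groups. Macrophage markers, of which 10 of 10 in the files passed the filter, summed to 389 RPKM in KO high fat against 280.0 RPKM in Flox high fat, and to 240.4 RPKM in KO chow against 246 RPKM in Flox chow. Stellate cell markers summed to 161 RPKM in KO high fat against 96.9 RPKM in Flox high fat, and 125 RPKM in KO chow against 100.2 RPKM in Flox chow. Dcn made up most of these stellate sums, at 130 RPKM in KO high fat against 80.0 RPKM in Flox high fat. Cholangiocyte markers summed to 118 RPKM in KO high fat against 25.0 RPKM in Flox high fat, and 46.3 RPKM in KO chow against 23.6 RPKM in Flox chow, of which Spp1 made up most. Hepatocyte markers summed to 17105 RPKM in KO high fat, 1858 RPKM of it from Serpina1a, against 27476 RPKM in Flox high fat. On chow they summed to 20657 RPKM in KO against 29655 RPKM in Flox. These markers differed in size and direction on the high-fat diet. Apoa1 stood at 4793 RPKM in KO high fat against 11270.5 RPKM in Flox high fat, and Cyp2e1 at 1707 against 5287 RPKM. Ttr, Apob, Cps1 and Fgb were also lower in KO, while Ahsg (4164 against 4098 RPKM) and Tat (302 against 273 RPKM) were not. Endothelial markers summed to 62.8 RPKM in KO high fat against 64.7 RPKM in Flox high fat, neutrophil markers to 7.47 against 8.02 RPKM, T and B lymphocyte markers to 3.33 against 3.04 RPKM, and erythroid markers to 873 against 1745 RPKM in that order. On chow these 4 sums were 61.2 RPKM in KO against 70.0 RPKM in Flox for endothelial and 7.46 against 5.96 RPKM for neutrophil markers. In that order they were 3.38 against 2.86 RPKM for lymphocyte and 1832 against 1293 RPKM for erythroid markers. The erythroid and neutrophil sums were higher in KO on chow and lower in KO on the high-fat diet, but the neutrophil markers were split. S100a8 stood at 3.09 RPKM in KO chow against 1.34 RPKM in Flox chow, and S100a9 at 3.15 against 3.67 RPKM. On the high-fat diet S100a9 stood at 3.83 RPKM in KO against 4.85 RPKM in Flox, and S100a8 and Elane were slightly lower. Mpo, Retnlg, Csf3r and Cxcr2, all under 1 RPKM, were higher in KO there. The part of these cell types in the levels of Egr1, Ier3 and Klf6 was not tested. Ddit3, the CHOP gene of the stress response, rose in KO on the high-fat diet, to 18.0 RPKM against 4.99 RPKM in Flox high fat (log2 change 1.67). Atf4 (32.0 RPKM in both) did not, and Hspa5 stood at 136 RPKM in KO high fat against 181 RPKM in Flox high fat (-0.41). On chow Hspa5 fell in KO, at 99.8 RPKM against 204 RPKM in Flox (-1.02). Ddit3 stood at 5.78 RPKM in KO chow against 4.23 RPKM in Flox chow (0.37), and Atf4 at 38.3 against 41.5 RPKM (-0.11).

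The mean profile of the 10 genes over the 4 groups had near neighbours among other genes. The measure was the Euclidean distance between log2(RPKM + 1) values centred on each gene's own mean, over 4 group values, in genes of at least 5 RPKM in at least 1 group. The 5 nearest were Psip1 (distance 0.035), Ifitm1 (0.054), Ifi27l1 (0.055), Myl12a (0.061) and Cyp7a1 (0.062). Each was lowest in Flox high fat, as the mean profile was, which follows from how they were picked. Not all of the 10 genes had that feature. Fos was lowest in KO chow, Jun and Klf6 in Flox chow, and Ier2 in KO high fat, while the others were lowest in Flox high fat. With 4 values per gene such likeness is a description of these groups.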

How the data were processed

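The deposited files hold 1 RPKM value per gene for each of 4 groups, per the file headers, and each file was assigned to a group by its name. The submitters' processing notes name TopHat2 2.0.7, Cuffdiff 2.1.1 and mm10 without a role or order. Neither the annotation nor how a group's 2 libraries became 1 value is stated in the labels or headers. Low values of genes with only 1 transcript length were multiplied by that length and set against a grid of trial steps. At the best step of each group, 15.8% to 19.0% of the values a few steps in size were near whole steps (tolerance 0.05 of a step). Read numbers were thus not recovered and depth is unknown.

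Rows of 158 repeated symbols were summed (23179 rows, 22923 symbols). The filter kept 10351 genes that reached 1 RPKM in some group, a gene at exactly 0 was left out of comparisons with that group, and log2 changes used a pseudocount of 1 RPKM. Thresholds of 2-fold and 1.5-fold carry no test. From each gene list the text takes up to 4 genes with the largest change in a comparison, and others named (Mapk8, Mapk9, Npm1, Fbl, Hmox1 and Vegfa among them) were chosen after their values were seen. The members and lists were chosen with earlier results of these data known. The alternatives were 9 listed ones and 1 added after seeing the data. Calculations, tested on simulated data, ran in Python 3.11.15 with pandas 2.3.3 and numpy 2.4.6; matplotlib 3.10.9 drew the figures.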

Additional observations from a re-analysis of the deposited data

Results flagged for a closer look

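In 4 cases the 2 groups moved in opposite directions under the same contrast. Each rests on 1 value per group, and the difference was not tested. Between diet changes, Egr1 had a log2 change of 0.51 in KO and -0.23 in Flox livers (difference 0.74), and Ier3 had 0.43 in KO and -0.29 in Flox livers (difference 0.71). Both stayed opposite after either rescaling. Between knockout changes, Myc had 0.31 on the high-fat diet and -0.09 on chow (difference 0.41), and Fos 0.21 and -0.03 in that order (difference 0.24). These last pairs were no longer opposite after rescaling without the 50 most abundant genes.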

How the results depend on the processing

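No paired analysis was possible because the files hold 1 value per gene and group, and for the same reason leaving out each replicate was not run. The count of the 10 genes past the threshold was 0 in all 5 comparisons. In KO against Flox on the high-fat diet it became 2 (Egr1 and Ier3) with a pseudocount of 0.1 RPKM, 1 (Egr1) after scaling the groups to 1 median, 2 (Egr1 and Ier3) after rescaling without the 50 most abundant genes, and 3 at 1.5-fold. For the difference between diets it became 1 (Ier3) with a pseudocount of 0.1 RPKM and 2 at 1.5-fold. It became 1 at 1.5-fold for the diet in Flox (Myc) and 1 in KO (Klf6). The other settings left it at 0. With a pseudocount of 5 RPKM, Egr1, Ier3 and Klf6 were also short of 1.5-fold in KO against Flox on the high-fat diet. Jun, short of 1.5-fold in KO against Flox on the main settings, passed it under some others. On chow these were a pseudocount of 0.1 RPKM and rescaling without the 50 most abundant genes. On the high-fat diet Jun passed it after either rescaling, and Jund (0.61) after rescaling without the 50 most abundant genes.

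Over all genes, the counts past the threshold were 167 for KO against Flox on chow, 303 on the high-fat diet, 66 and 151 for the diet in Flox and KO, and 127 for the difference. They were 263, 494, 124, 305 and 240 with a pseudocount of 0.1 RPKM, 96, 156, 40, 85 and 68 with 5 RPKM, and 509, 1190, 300, 762 and 552 at 1.5-fold, in that order. Scaling the groups to 1 median, or to 1 sum without the 50 most abundant genes, changed the split of rises and falls on the high-fat diet to 146 and 116, and 193 and 90, in place of 111 and 192. For the diet in KO it became 96 and 60, and 134 and 47, in place of 69 and 82. For the diet in Flox it became 31 and 35 after the second, in place of 22 and 44, and for the difference 95 and 36, and 105 and 35, in place of 68 and 59. The cause was not tested. Unknown depth limits the low genes, Fos and Ier3 above all.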
